A study of Mus musculus with 35 samples.

Results

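Young mouse livers collected 48 h after partial hepatectomy (PH) were compared with young livers collected 38 h after it, using 3 arrays per time point out of 35 in the series. The comparison covers all 34945 probe sets that carry 1 gene symbol, which stand for 18193 genes. The question is how the liver transcriptome differs between these times, which lie 10 h apart. The 48 h PH and 38 h PH groups were male CB6F1 mice aged 5 to 6 months, supplied by Jackson, that lost 70% of the liver under avertin and isoflurane. Further young groups used here were sham-operated mice at 48 h (2 arrays), 38 h (1 array) and 24 h (2 arrays), in which the liver was handled but not resected, PH mice at 24 h (3 arrays) and untreated mice at 0 h (3 arrays). Old PH mice of the same strain at 48 h and 38 h, aged 25 to 27 months (3 arrays each), served for a test of the difference by age. Whole liver RNA was hybridised to Affymetrix moe430_2 arrays, and the authors deposited RMA signals, which are log2 values, so a difference of 1 is a 2-fold difference. Whether each replicate is an animal of its own is not stated in the labels. In the main fit the p-values refer to the spread between arrays within groups, pooled over all 35 arrays, and part of it may be technical. Old untreated, old sham and old PH 24 h arrays, also of mice aged 25 to 27 months, entered that fit only through this spread.

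After PH the remaining hepatocytes leave quiescence and divide in a partly synchronous wave. Cyclins of the D and E types and the MCM helicase loading factors act before and during DNA replication. B-type cyclins, the anaphase-promoting complex with its activator Cdc20, and the kinesins of the spindle act in mitosis and cytokinesis, and they are transcribed later in the cycle. The liver also follows a daily clock, in which activators such as BMAL1 and repressors such as REV-ERB alpha drive output genes, and samples taken 10 h apart may differ in the time of day.

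The arrays carried the liver label in their markers. Alb, which encodes albumin, lay between 14.85 and 14.91 on the 6 PH arrays, and Hnf4a, which encodes a hepatocyte transcription factor, lay between 12.83 and 13.07. None of 10 hepatocyte markers passed the test between the times, and their median difference was 0.03. RNA came from whole tissue, so fewer cells of a type and less RNA per cell cannot be told apart in any result here.

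Replicates 1 and 2 of the 38 h PH group were far more alike than any other pair of arrays within a group. Among 3337 genes with a mean signal above 10, the SD of their difference was 0.104, against 0.18 to 0.961 in the other 28 pairs. Only 2 genes differed by over 2-fold between them, against at least 18 genes in each other pair. Both are labelled as separate replicates, and nothing in the labels explains the likeness. Counted as 1 sample, the pair leaves 2 samples at 38 h, so counts are also given with the pair averaged as 1 sample, an alternative added after the values were seen. The remaining 38 h array, replicate 3, stood apart from the pair toward the 48 h arrays in genes of mitosis. For that reason single arrays are given for the genes on which the results turn.

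In the fit across all genes 190 genes rose at 48 h and 40 fell, which is 1.04% and 0.22% of the 18193 genes tested and 1.26% together (limma, Benjamini-Hochberg adjusted p under 0.05). The largest rises, in order of size, were those of Cdkn3, the cytochrome P450 Cyp2c55, and Ccnb2, Depdc1a and Cdc20 of the dividing cell, and the lowest p was that of Serpinb8. The largest falls were those of the cyclin E2 gene Ccne2, the lipid transporter Mfsd2a and the replication licensing factor Cdc6. A rise of over 2-fold was seen for 24 of the 190 and a fall of over 2-fold for 6 of the 40. The median rise was 0.58 and the median fall -0.58 on the log2 scale, while the median difference over all genes was -0.013 and 46.6% of all genes had the higher mean at 48 h. Of the 34945 probe sets tested singly, 376 passed (1.08%), 311 higher (0.89%) and 65 lower (0.186%). With only the young arrays in the fit 792 genes passed (4.35%), 602 higher (3.31%) and 190 lower (1.04%), and 226 of the 230 were among them. With replicates 1 and 2 of 38 h averaged, 36 genes rose and 5 fell, and all 41 were among the 230. With the pair averaged and only young arrays in the fit, 162 rose and 50 fell, of which 110 were among the 230. Adjusted p given below for single genes with the pair averaged come from the fit of all arrays unless stated otherwise. For the 38 genes that passed and were named by rule, the difference with the pair averaged was 83.2% to 110.7% of the difference without averaging, so the lost calls described here came with differences of similar size. Of the 38, 9 kept the call with the pair averaged in the fit of all arrays, and 25 in that of young arrays only. Leaving out 1 array at a time gave 54, 44 and 353 genes without 38 h replicates 1, 2 and 3, and 28, 241 and 124 genes without 48 h replicates 1, 2 and 3.

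**Figure D1:**
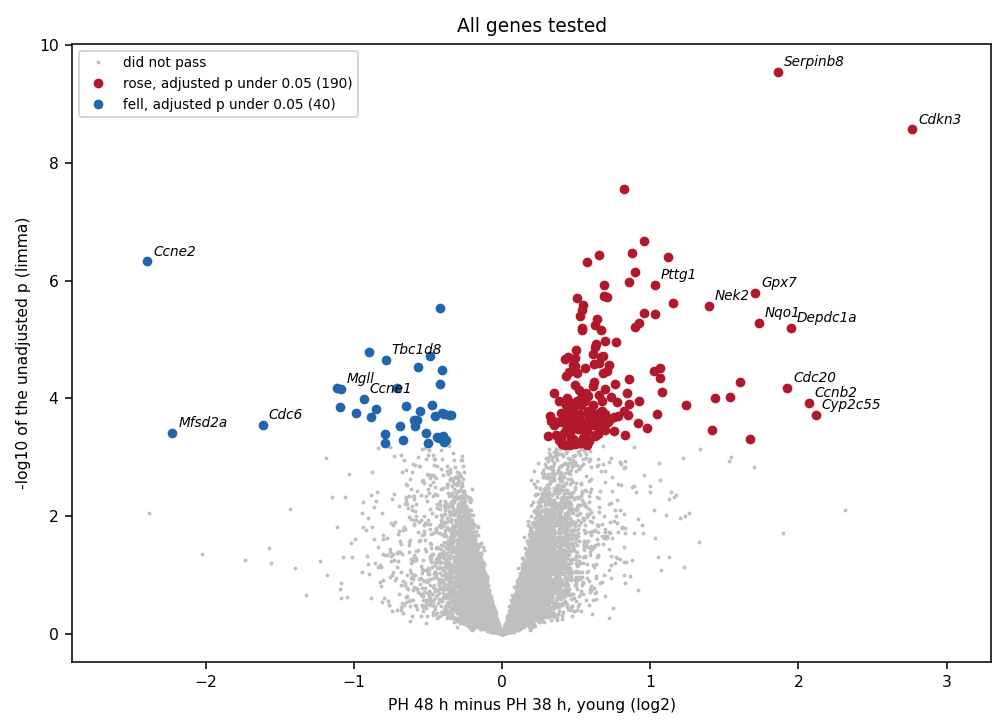
Difference between 48 h and 38 h after PH in young livers (log2, x axis) against -log10 of the unadjusted limma p (y axis), 1 point per gene. Red points are the 190 genes that rose and blue points the 40 that fell, and among these Cdkn3 and Ccne2 have the largest change on either side.

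Promoters of 2 of the largest mitotic rises and of the largest fall among replication genes are shown, with motifs known from late and early cell cycle genes. Only promoters that held the motif searched were eligible, so its presence in those shown was set by the choice. Chaf1b and Lonrf3, the other falls of the replication and clock lists, had no promoter with an E2F-like match among those searched. The CHR element (TTTGAA) and the CCAAT box are known from promoters of genes of G2 and mitosis, and E2F-like sites (TTTNNCGC) from promoters of genes of S phase entry. Each is the RefSeq promoter on GRCm38.p6, from 250 bases before to 50 bases after the gene start, 5′ to 3′ on the gene's strand. Ccnb2 lies on the minus strand at chr9:70421505-70421804, Cdc20 on the minus strand at chr4:118437294-118437593 and Cdc6 on the plus strand at chr11:98907901-98908200. Capitals mark the CHR matches in Ccnb2 and Cdc20 and the E2F-like match in Cdc6.
Ccnb2: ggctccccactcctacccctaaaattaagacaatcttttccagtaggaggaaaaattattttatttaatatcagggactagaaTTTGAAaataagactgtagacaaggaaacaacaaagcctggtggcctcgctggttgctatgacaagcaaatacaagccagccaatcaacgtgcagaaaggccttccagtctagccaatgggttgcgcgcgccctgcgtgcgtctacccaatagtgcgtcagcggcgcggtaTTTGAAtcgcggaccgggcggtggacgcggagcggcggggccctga
Cdc20: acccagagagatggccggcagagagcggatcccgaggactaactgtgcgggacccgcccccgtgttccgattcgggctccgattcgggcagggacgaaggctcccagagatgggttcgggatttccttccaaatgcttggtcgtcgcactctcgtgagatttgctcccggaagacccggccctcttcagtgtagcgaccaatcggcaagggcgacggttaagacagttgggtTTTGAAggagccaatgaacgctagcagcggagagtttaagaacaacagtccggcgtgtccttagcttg
Cdc6: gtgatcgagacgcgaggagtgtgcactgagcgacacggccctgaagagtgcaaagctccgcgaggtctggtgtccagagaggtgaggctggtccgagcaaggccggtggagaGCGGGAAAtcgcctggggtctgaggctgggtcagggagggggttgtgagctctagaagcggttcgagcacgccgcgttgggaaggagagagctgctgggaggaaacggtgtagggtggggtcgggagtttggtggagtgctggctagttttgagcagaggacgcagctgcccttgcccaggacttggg
The Ccnb2 promoter held 2 CHR matches and 3 CCAAT boxes. The Cdc20 promoter held 1 CHR match, beginning 18 bases before the start, and 2 CCAAT boxes. The Cdc6 promoter held 1 E2F-like match, on the other strand, and no CCAAT box.

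Motifs were counted on both strands. The CHR letters occurred in 51.7% of 120 promoters of the 6 mitotic gene lists described below, matched for 103 of their 127 genes, against 17.9% of all 32851 promoters in the table. The E2F-like letters occurred in 37.0% of 54 promoters of the DNA replication list, matched for 45 of its 54 genes, against 5.17% of all promoters. CCAAT occurred in 65.8% of the mitotic promoters, in 55.6% of the replication promoters and in 37.4% of all. Of the genes that rose at 48 h as a whole, 18.6% of 204 promoters of 161 of the 190 genes held the CHR letters. Of the genes that fell, 7.89% of 38 promoters of 30 of the 40 genes held the CHR letters and 13.2% the E2F-like letters. A match describes the letters in this window and is not a binding site.

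The falls of named cell cycle genes were in S phase entry and replication (Ccne2, Ccne1, Cdc6 and Chaf1b). Ccne2, which encodes cyclin E2, a partner of the kinase that starts S phase, had signals of 6.07, 5.94 and 6.38 on the 48 h arrays, against 8.65, 8.33 and 8.58 on the 38 h arrays. It was the largest fall among the genes that passed, -2.39 ± 0.35 (SE) or 5.25-fold (limma adjusted p = 0.000965), and it passed with the pair averaged (adjusted p = 0.00981). Its 3 arrays at each time lay close together, and its 48 h signal stood between the untreated mean of 5.25 and the mean of 6.81 at 24 h. Ccne1, encoding the second E-type cyclin, had 9.07, 9.05 and 9.26 at 48 h, against 9.9, 10.1 and 10.17 at 38 h. It fell 1.91-fold (adjusted p = 0.0208), and both of its probe sets passed, but it did not pass with the pair averaged (adjusted p = 0.078). Cdc6, a factor that loads the MCM helicase onto origins, had 6.45, 6.44 and 6.46 at 48 h, against 8.14, 8.21 and 7.85 at 38 h. The 3.06-fold fall of Cdc6 (-1.61) had an adjusted p of 0.0299, and with the pair averaged the difference was -1.56 and the adjusted p 0.151. Chaf1b, a subunit of the chromatin assembly factor that works behind the replication fork, had 7.69, 7.62 and 7.96 at 48 h, against 8.39, 8.49 and 8.75 at 38 h. It fell 1.73-fold (adjusted p = 0.0473, and 0.141 with the pair averaged), and neither of its probe sets passed when every probe set was tested on its own. With the pair averaged and only young arrays in the fit, limma adjusted p were 0.0115 for Ccne1, 0.0283 for Cdc6 and 0.0168 for Chaf1b.

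Most other replication genes had a lower mean at 48 h without passing. Of all genes 0.22% fell, 46.6% had the higher mean at 48 h, and 1.04% fell with only young arrays in the fit. Of 54 measured members of the DNA replication list, 2 fell, none rose, 51 had a lower mean at 48 h and 3 a higher one, by up to 1.06. The list's median difference was -0.3, and -0.36 with the pair averaged, and 28 of its members had all 48 h arrays below all 38 h arrays, where 8.86% of all genes did. In the fit of young arrays only, 13 members fell and 2 rose, and with the pair averaged in the fit of all arrays none passed. Pcna, the sliding clamp of the replication polymerases, had 12.45, 12.38 and 12.49 at 48 h, against 13.02, 13.04 and 13.35 at 38 h. The difference of -0.69 in Pcna did not pass (adjusted p = 0.161). Neither did Mcm6 (-1.07, adjusted p = 0.386) or Mcm5 (-0.51), both subunits of the helicase, nor Rrm2 (-0.64), a subunit of ribonucleotide reductase, although the arrays of each were separate between the times. Of the 54 members 46 had their highest PH mean at 38 h among 24, 38 and 48 h, as did 29.7% of all genes.

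Replication genes at 48 h remained well above the untreated livers. The mean of the list over its untreated level was 1.18, 1.12 and 1.3 on the 48 h arrays, against 1.43, 1.43 and 1.8 on the 38 h arrays. The groups did not overlap, and replicate 3 was the highest of the 38 h arrays. At 24 h the PH mean was 0.71 ± 0.27 (SD, n = 3), and in young sham livers the list averaged -0.04 at 48 h and -0.15 at 38 h.

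Of 28 G1 and G1/S regulators, the 2 cyclins E were the only ones that fell, where 0.22% of all genes did. None rose, and the median difference was -0.13. With the pair averaged Ccne2 alone passed. Ccnd1, which encodes cyclin D1, the cyclin of the growth factor response, had 12.15, 12.21 and 11.83 at 48 h, against 12.05, 11.99 and 11.8 at 38 h, groups that overlapped. Its difference of 0.12 did not pass (adjusted p = 0.955), and both times lay above the untreated mean of 9.43. Cdkn1a, which encodes the cyclin-dependent kinase inhibitor p21, had 11.94, 11.87 and 11.76 at 48 h, against 11.76, 11.75 and 11.46 at 38 h (difference 0.2, adjusted p = 0.896).

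**Figure D2:**
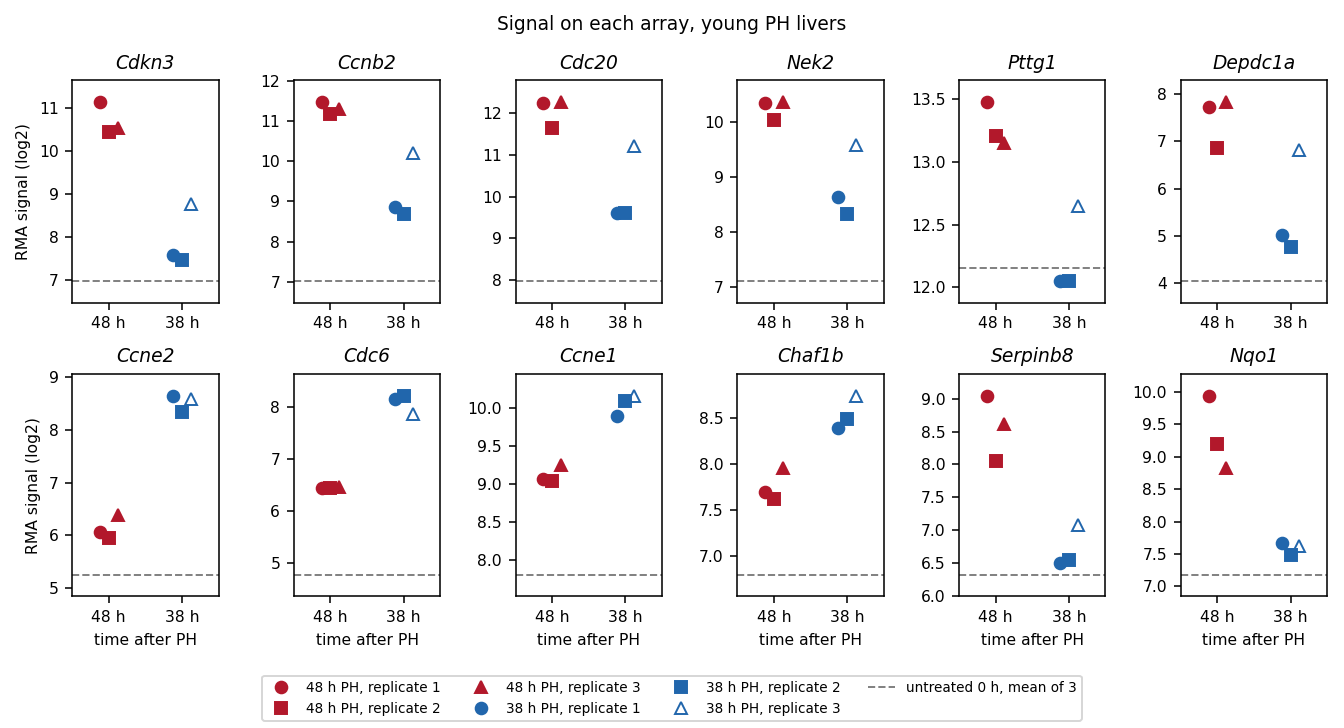
RMA signal (log2, y axis) on each array of the 48 h PH (red) and 38 h PH (blue) groups for 12 genes, with the untreated mean as a dashed line. Open triangles are 38 h replicate 3, which lies above the other 38 h arrays in the 6 mitotic genes of the upper row, while the 3 arrays of either time lie close together in Ccne2.

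The largest rises included genes that act in or are linked to mitosis. Cdkn3, which encodes a phosphatase acting on cyclin-dependent kinases, had 11.15, 10.44 and 10.53 at 48 h, against 7.58, 7.47 and 8.76 at 38 h. This 6.81-fold rise (2.77 ± 0.3, limma adjusted p = 2.46e-05) was the largest of all genes that passed, and it held with the pair averaged (adjusted p = 0.000751). At 24 h Cdkn3 was at 6.98, at its untreated level of 6.97. Ccnb2, encoding a B-type cyclin that activates the mitotic kinase, had 11.48, 11.18 and 11.29 at 48 h, against 8.86, 8.68 and 10.2 at 38 h. Cdc20, the activator of the anaphase-promoting complex, had 12.25, 11.65 and 12.28 at 48 h, against 9.6, 9.61 and 11.21 at 38 h. Depdc1a, a gene expressed in dividing cells, had 7.73, 6.87 and 7.84 at 48 h, against 5.02, 4.77 and 6.82 at 38 h. Cdkn3 and Depdc1a are in none of the mitotic lists used below. In these genes every 48 h array was above every 38 h array, but 38 h replicate 3 lay between the pair and the 48 h arrays. Ccnb2 rose 4.2-fold (adjusted p = 0.022), Depdc1a 3.85-fold (adjusted p = 0.00364) and Cdc20 3.79-fold (adjusted p = 0.0165). With the pair averaged these 3 did not pass in the fit of all arrays, at adjusted p of 0.148, 0.0555 and 0.132. With the pair averaged and only young arrays in the fit, Ccnb2 (limma adjusted p = 0.012) and Cdc20 (0.0297) passed and Depdc1a (0.0581) did not. Of the 3 Cdc20 probe sets 1 passed on its own, and their differences ranged from 0.52 to 1.92.

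Further regulators of mitotic entry and anaphase rose. Nek2, a kinase of centrosome separation, had 10.35, 10.03 and 10.37 at 48 h, against 8.63, 8.33 and 9.58 at 38 h. Its 2.63-fold rise passed (adjusted p = 0.00242) and held with the pair averaged (adjusted p = 0.0316), although 1 of its 4 probe sets passed on its own and the others ranged down to 0.03. Pttg1, which encodes securin, the inhibitor that Cdc20-bound APC removes at anaphase, had 13.48, 13.21 and 13.15 at 48 h, against 12.05, 12.05 and 12.65 at 38 h. It rose 2.04-fold (adjusted p = 0.00168, and 0.0239 with the pair averaged), and 2 of its 3 probe sets passed, with differences from 0.1 to 1.55. The untreated mean of Pttg1, 12.15, lay near the pair of 38 h arrays. Cdc25c, a phosphatase that activates the mitotic kinase, had 8.48, 8.17 and 8.47 at 48 h, against 7.22, 7.31 and 8.07 at 38 h. It rose 1.79-fold (adjusted p = 0.0183, and 0.145 with the pair averaged). Diaph3, a formin of the cytokinetic actin system, had 7.92, 6.72 and 7.27 at 48 h, against 5.88, 6.09 and 6.74 at 38 h, so that its groups overlapped. Its rise was 2.09-fold (adjusted p = 0.0127), and 0.105 was the adjusted p with the pair averaged. Ncaph2, a condensin subunit, rose 1.3-fold (adjusted p = 0.029, and 0.148 with the pair averaged). Of its 4 probe sets 1 passed on its own, and their differences ranged from -0.07 to 0.45.

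The lists of mitotic genes differed in how many of their members passed. Of all genes 1.04% rose, 46.6% had the higher mean at 48 h, and 3.31% rose with only young arrays in the fit. Of 23 mitotic entry cyclins and kinases 3 rose (Ccnb2, Nek2 and Cdc25c), with a median of 0.32. Of 14 spindle checkpoint and anaphase genes 2 rose (Cdc20 and Pttg1), with a median of 0.64 and 13 higher at 48 h. Of 14 cytokinesis and chromosomal passenger genes 1 rose (Diaph3), with a median of 0.8 and again 13 higher. Of 20 condensation and cohesion genes 1 rose (Ncaph2), with a median of 0.04. None of the 31 centromere and kinetochore genes passed (median 0.24), nor any of the 25 spindle and kinesin genes (median 0.39), of which 23 were higher at 48 h. No member of these 6 lists fell in the fit of all arrays. With only young arrays in the fit, 7, 6, 5, 1, 5 and 5 members of the lists of entry, checkpoint, cytokinesis, condensation, kinetochore and spindle genes rose, and 1 condensation gene fell. With the pair averaged in the fit of all arrays, 1 entry gene (Nek2) and 1 checkpoint gene (Pttg1) rose. The medians of the same lists, in that order, were then 0.17, 0.46, 0.6, -0.07, 0.14 and 0.29, so that of the condensation genes turned sign.

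**Figure D3:**
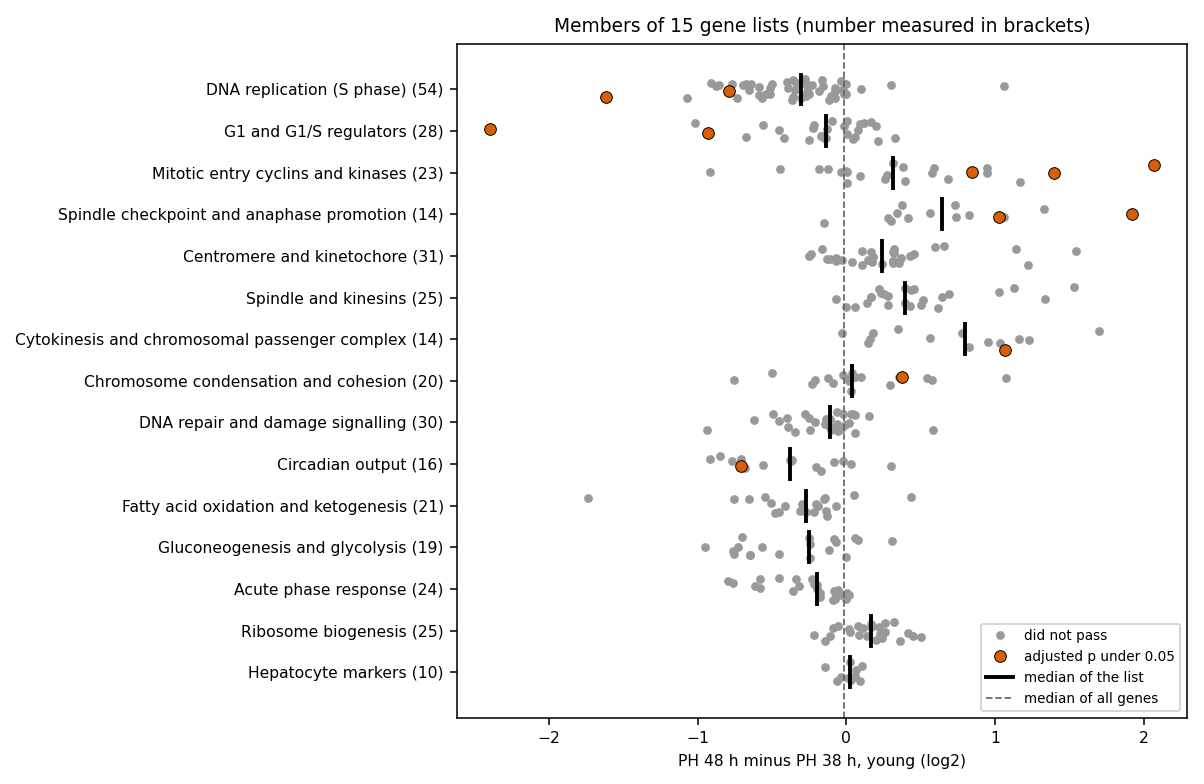
Difference between 48 h and 38 h (log2, x axis) of each measured member of 15 gene lists, with the list median as a black bar and the median of all genes as a dashed line. Orange points passed the test, and the medians of the replication genes (-0.3) and of the cytokinesis genes (0.8) lie on opposite sides of the median of all genes.

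Several well-known mitotic genes did not pass. Birc5, which encodes survivin of the chromosomal passenger complex, had 11.72, 11.55 and 11.79 at 48 h, against 9.88, 9.89 and 11.62 at 38 h, with overlap at replicate 3 (difference 1.23 ± 0.65, adjusted p = 0.452). Mki67, the gene of the proliferation marker Ki-67, had 11.36, 11.34 and 11.49 at 48 h, against 10.03, 9.54 and 11.38 at 38 h (difference 1.08, adjusted p = 0.47). Aurka, an entry kinase, had 10.81, 10.41 and 11.16 at 48 h, against 9.27, 9.14 and 10.46 at 38 h (difference 1.17, adjusted p = 0.138). In Birc5, Mki67 and Aurka the like pair was low and replicate 3 reached the range of the 48 h arrays. Plk1 (difference 0.95), Ccna2 (0.94) and Cdk1 (0.59) likewise did not pass, at adjusted p of 0.263, 0.228 and 0.63. Top2a, the topoisomerase of chromosome separation, had 10.21, 9.85 and 10.87 at 48 h, against 10.04, 9.99 and 10.8 at 38 h (difference 0.04, adjusted p = 0.986), a value whose sign turned under other settings. Foxm1, a transcription factor of late cell cycle genes, had 9.07, 9.06 and 8.97 at 48 h, against 8.93, 8.84 and 9.34 at 38 h on its brightest probe set (adjusted p = 0.996), with a mean of 8.76 in untreated livers. Ccnb1 had no probe set with 1 symbol.

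The course of the lists over the untreated level showed where the times lie. Checkpoint and anaphase genes averaged 2.4, 1.98 and 2.42 on the 48 h arrays, against 1.31, 1.28 and 2.12 on the 38 h arrays. Cytokinesis genes averaged 2.96, 2.51 and 2.94 at 48 h, against 1.77, 1.8 and 2.66 at 38 h. In both lists 38 h replicate 3 lay inside the 48 h range, and its replication genes were the highest of all 6 arrays as well. At 24 h after PH the same lists averaged 0.39 ± 0.18 and 0.52 ± 0.28 (SD, n = 3), and sham livers lay at 0.05 and 0.06 at 48 h and at 0.13 and -0.04 at 38 h. Among 24, 38 and 48 h, 13 of 14 checkpoint genes, 22 of 25 spindle genes, 11 of 14 cytokinesis genes, 17 of 23 entry genes, 22 of 31 kinetochore genes and 12 of 20 condensation genes had their highest PH mean at 48 h, as did 30.1% of all genes.

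**Figure D4:**
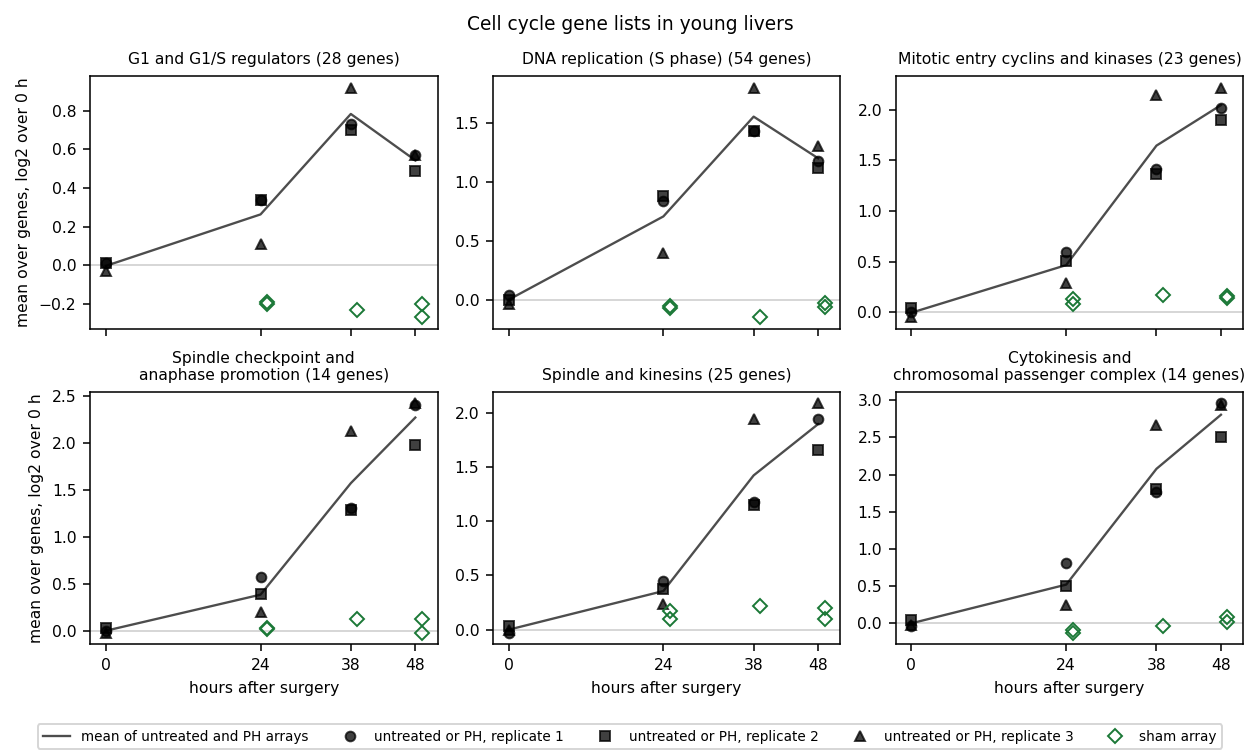
Mean signal of 6 cell cycle gene lists over the untreated mean (log2, y axis) on each young array against hours after surgery (x axis), with filled symbols for untreated and PH arrays by replicate, diamonds for sham arrays and a line through the means. The replication list peaks at 38 h, the 4 mitotic lists are highest at 48 h, and 38 h replicate 3 lies above the other 38 h arrays in all 6.

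Of 30 DNA repair and damage genes none passed, and 23 had a lower mean at 48 h (median -0.11). Among all genes 1.04% rose and 46.6% had the higher mean at 48 h. Of 9 histone genes measured, H1f2, a linker histone, rose with 12.6, 12.52 and 11.97 at 48 h, against 11.46, 11.63 and 11.75 at 38 h (1.69-fold, adjusted p = 0.0268, and 0.145 with the pair averaged). Of the 3 probe sets of H1f2 1 passed on its own, and their differences ranged from 0.08 to 0.75. None of 21 p53 target genes passed (median 0.12).

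For lists without a passing gene, the differences of the brightest members were as follows. Among kinetochore genes Zwint differed by -0.03 and Nsl1 by 0.17, and among spindle genes Stmn1, which encodes stathmin, by 0.62 and Troap by 0.14. Among repair genes Fancl differed by 0.15 and Mms22l by -0.24, and among p53 targets Ei24 by 0.27 and Perp by 0.11. Stmn1 resembled Birc5 in its arrays, with 13.64, 13.44 and 13.54 at 48 h, against 12.63, 12.58 and 13.56 at 38 h. The brightest metabolic and acute phase genes, Acaa2 (-0.15), Acaa1b (-0.41), Fbp1 (0.06), Ldha (0.08), Hp (-0.04) and Hpx (-0.07), did not pass, nor did the ribosome biogenesis genes Nop10 (-0.14) and Npm1 (0.11), the early response genes Zfp36 (0.17) and Jund (0.02) or the clock genes Csnk1d (-0.03), Bhlhe40 (-0.78), Per1 (-0.29) and Per2 (-0.3). None of the 3 probe sets of Per2 passed, and their differences ranged from -1.39 to -0.17.

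Among genes outside the cell cycle the rise with the lowest p was that of Serpinb8, which encodes an intracellular protease inhibitor. It had 9.05, 8.05 and 8.61 at 48 h, against 6.5, 6.55 and 7.08 at 38 h, and the untreated and 24 h means were both 6.32. The 3.63-fold rise (adjusted p = 5.18e-06) held with the pair averaged (adjusted p = 0.000171), and both of its probe sets passed. Nqo1, a quinone reductase of the antioxidant response, had 9.94, 9.2 and 8.82 at 48 h, against 7.67, 7.49 and 7.62 at 38 h. It rose 3.32-fold (adjusted p = 0.00341, and 0.0287 with the pair averaged), and its 3 arrays at 38 h lay together. Gpx7, a peroxidase of the endoplasmic reticulum, had 9.49, 8.8 and 9.81 at 48 h, against 7.28, 7.4 and 8.29 at 38 h. The rise of Gpx7 was 3.27-fold (adjusted p = 0.00207, and 0.0268 with the pair averaged). Of the 20 antioxidant and glutathione genes listed, Nqo1 was the one that passed, where 1.04% of all genes rose, and the median of that list was 0.11.

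Ptgr1, which encodes a reductase of prostaglandins and leukotrienes, had 12.12, 11.22 and 11.4 at 48 h, against 9.79, 10.15 and 9.98 at 38 h. It rose 3.05-fold (adjusted p = 0.0144, and 0.0692 with the pair averaged). Selenoh, a nuclear selenoprotein, had 12.17, 11.98 and 12 at 48 h, against 10.51, 10.54 and 11.38 at 38 h (2.36-fold, adjusted p = 0.022, and 0.149 with the pair averaged). Tmem218, a membrane protein gene linked to cilia, rose 2.23-fold with separate arrays (adjusted p = 0.00239, and 0.0239 with the pair averaged). In sham livers Tmem218 had a difference of 0.88 in the same direction, which did not pass (adjusted p = 0.235).

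The secreted signals Ccl9 and Il33 rose at 48 h. Ccl9, a chemokine, had 13.94, 13.26 and 13.12 at 48 h, against 11.85, 11.9 and 11.96 at 38 h. Il33, an alarmin cytokine, had 9.74, 7.78 and 8.38 at 48 h, against 7.54, 7.42 and 6.62 at 38 h. Ccl9 rose 2.91-fold (adjusted p = 0.0203) with both probe sets, and Il33 2.71-fold (adjusted p = 0.0205), with adjusted p of 0.0983 and 0.0555 with the pair averaged. Macrophage markers stood beside this without a test passed, with 13 of 16 lower at 48 h and an average over the untreated level of 0.4, -0.06 and 0.15 at 48 h, against 0.54, 0.53 and -0.01 at 38 h. Their part in the rise of Ccl9 was not tested. All 10 neutrophil markers had a lower mean at 48 h, none passed, and their average was 0.14, 0.26 and 0.3 at 48 h, against 0.83, 0.86 and 0.15 at 38 h, so that the like pair alone was high. The higher mean was at 48 h for 46.6% of all genes.

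Prom1, a membrane protein used as a marker of bile duct and progenitor cells, had 10.28, 8.36 and 7.26 at 48 h, against 7.2, 6.98 and 6.7 at 38 h. It rose 3.2-fold (adjusted p = 0.0429, and 0.145 with the pair averaged), with 48 h replicate 1 far above the others. It was the one of 8 bile duct markers that passed, where 1.04% of all genes rose. The average of the list was 0.9, 0.36 and 0.43 at 48 h, against 0.36, 0.46 and 0.11 at 38 h. The part of bile duct cells in the rise of Prom1 was not tested. No marker passed in the lists of sinusoidal endothelial, stellate, T and NK, B and plasma, erythroid, adipose, pancreas acinar and skeletal muscle cells, with medians between -0.19 and 0.01.

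Few genes of hepatocyte metabolism passed, and they were spread over several lists. Cyp2c55, a cytochrome P450, had 10.93, 11.26 and 10.56 at 48 h, against 8.72, 8.4 and 9.28 at 38 h, and an untreated mean of 9.39. Cyp2c70, which makes the muricholic acids of mouse bile, had 14.1, 13.98 and 13.59 at 48 h, against 13.15, 13.14 and 13.48 at 38 h. Its 48 h signal lay around the untreated mean of 13.97, above the 38 h arrays. Cyp2c55 rose 4.34-fold (adjusted p = 0.0261, and 0.145 with the pair averaged) and Cyp2c70 1.55-fold (adjusted p = 0.00646, and 0.0681 with the pair averaged). These were the 2 of 32 P450 and drug metabolism genes that passed, where 1.04% of all genes rose, and the list's median was -0.06. Dgat1, an enzyme of the last step of triglyceride synthesis, rose 1.54-fold (adjusted p = 0.0144, and 0.0949 with the pair averaged), and its second probe set had a difference of -0.22. It was the one of 23 fatty acid and triglyceride synthesis genes that passed.

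Mfsd2a, Mgll, Gde1 and Nampt were among the largest falls. Mfsd2a, a transporter of lysophosphatidylcholine that is induced by fasting in liver, had 9.65, 9.32 and 8.99 at 48 h, against 12.07, 12.07 and 10.49 at 38 h. Its 4.67-fold fall (adjusted p = 0.0372) did not pass with the pair averaged (difference -1.96, adjusted p = 0.207), and 38 h replicate 3 lay well below the pair. Mgll, the monoacylglycerol lipase, had 10.27, 11.62 and 11.37 at 48 h, against 12.2, 12.19 and 12.11 at 38 h. It fell 2.12-fold (adjusted p = 0.0167, and 0.0845 with the pair averaged), with 3 of its 4 probe sets passing. Gde1, a glycerophosphodiester phosphodiesterase, had 9.96, 10.43 and 10.21 at 48 h, against 11.4, 11.44 and 11.09 at 38 h (2.16-fold lower, adjusted p = 0.0164, and 0.102 with the pair averaged). Nampt, the rate-limiting enzyme of NAD salvage and a clock output, had 9.07, 9.23 and 8.68 at 48 h, against 10.22, 10.03 and 9.68 at 38 h. It fell 1.98-fold (adjusted p = 0.0261, and 0.148 with the pair averaged), and 1 of its 3 probe sets passed, with differences from -0.99 to -0.23.

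In 4 further lists most members leaned one way without any passing, where 46.6% of all genes had the higher mean at 48 h. Of 21 fatty acid oxidation and ketogenesis genes, 19 had a lower mean at 48 h (median -0.27). Of 19 gluconeogenesis and glycolysis genes, 16 were lower (median -0.25), and their average over the untreated level was -0.76, -0.4 and -0.61 at 48 h, against -0.21, -0.21 and -0.28 at 38 h, without overlap. Of 24 acute phase genes, 22 were lower (median -0.2), among them Lcn2 (difference -0.45, adjusted p = 0.75) and Saa2 (-0.31, adjusted p = 0.863). Of 25 ribosome biogenesis genes, 20 were higher (median 0.17) and 13 had separate arrays, where 12.1% of all genes did. Between the sham livers of the 2 times the medians of these 4 lists, in the same order, were -0.31, 0.13, -0.16 and 0.05. Those of the fatty acid oxidation and acute phase lists thus lay near their PH medians. In the fit of young arrays 1 fatty acid oxidation gene, 5 gluconeogenesis and glycolysis genes and 3 acute phase genes fell and 2 ribosome biogenesis genes rose. The cholesterol synthesis list had a median of -0.03, and 0.24 with the pair averaged, with no member passing, while 2 members rose in the fit of young arrays, with or without averaging. Its average was -0.29, -0.41 and -0.47 at 48 h, against -0.06, -0.04 and -1.19 at 38 h, a gap within the 38 h group wider than that between the times.

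Immediate early genes, which respond within minutes to hours of a stimulus, did not pass the test between the times. Fos had 9.76, 9.99 and 9.94 at 48 h, against 10.76, 10.77 and 8.74 at 38 h, so that the like pair and replicate 3 lay on either side of the 48 h arrays (difference -0.19, adjusted p = 0.923). Egr1 differed by 0.53 (adjusted p = 0.797) and Myc by 0.04 (adjusted p = 0.976). None of 26 immediate early and stress genes passed, and their average over the untreated level was 0.13, 0 and -0.06 at 48 h, against 0.36, 0.41 and -0.38 at 38 h. Among liver factors Cebpb (-0.35, adjusted p = 0.189) and Cebpa (-0.04) did not pass, and neither did Afp, the fetal albumin relative (-0.05), Igfbp1, an insulin-like growth factor binding protein (-0.62, adjusted p = 0.751) or Igf1 (0.06). Cyp7a1, the rate-limiting enzyme of bile acid synthesis, had 8.24, 10.87 and 9.51 at 48 h, against 9.2, 9.05 and 9.27 at 38 h, and Cyp8b1, the enzyme of the cholic acid branch, 8.2, 10.46 and 10.45 at 48 h, against 9.55, 9.49 and 10.03 at 38 h. In both of these bile acid genes the spread within the 48 h group exceeded the difference between the times. Members that passed were likewise lacking in the lists of amino acid catabolism, bile acids, lipid droplets, growth hormone dependent genes, plasma proteins, unfolded protein response, heat shock, cytoskeleton, YAP targets, growth factors, interferon-induced genes and liver transcription factors, whose medians lay between -0.33 and 0.08.

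The remaining largest falls were in genes of several functions. Slfn9, of the Schlafen family, had 8.32, 8.48 and 8.67 at 48 h, against 9.14, 9.65 and 9.97 at 38 h (2.13-fold lower, adjusted p = 0.0229, and 0.0608 with the pair averaged). Oplah, the oxoprolinase of glutathione breakdown, fell 1.84-fold (adjusted p = 0.0268, and 0.117 with the pair averaged), with 48 h replicate 1 at 9.66 and the other 48 h arrays at 10.91 and 10.6, against 11.24, 11.27 and 11.32 at 38 h. Tbc1d8, a gene with a Rab GTPase-activating domain, fell 1.72-fold (adjusted p = 0.00841, and 0.0681 with the pair averaged). Arrdc2, an arrestin-domain gene, fell 1.8-fold, Lims2, a focal adhesion adaptor, 1.73-fold, Lonrf3, a RING finger gene counted here as a clock output, 1.63-fold, and Crebrf, a regulator of CREB3 family signalling, 1.61-fold. Their adjusted p were 0.0239, 0.0385, 0.0164 and 0.0307, and with the pair averaged 0.149, 0.189, 0.0691 and 0.0691. The second probe set of Lonrf3 had a difference of 0.28, and that of Slfn9 -0.18. Of the 3 probe sets of Crebrf 1 passed on its own, and their differences ranged from -0.69 to -0.14.

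The 41 genes that passed with the pair averaged include many outside the named groups, picked here after their values were seen. The 5 falls were Ccne2 and 4 smaller ones. Egln1, the oxygen-sensing prolyl hydroxylase, had 9.4, 9.42 and 9.32 at 48 h, against 9.73, 9.76 and 9.87 at 38 h. Wdr76 had 7.37, 7.18 and 7.4 at 48 h, against 7.66, 7.88 and 8.35 at 38 h. Itpka, an inositol trisphosphate kinase, and Samd1 fell by 0.57 and 0.42 on the log2 scale. Their adjusted p with the pair averaged were 0.0428 for Egln1, 0.0392 for Wdr76, 0.021 for Itpka and 0.0219 for Samd1.

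Rises that held with the pair averaged include Cdk7, the kinase that activates the cell cycle kinases and phosphorylates RNA polymerase, with 9.29, 8.88 and 9.35 at 48 h, against 8.54, 8.5 and 8.42 at 38 h. Gpsm2, which links the spindle to the cell cortex, had 10.11, 9.63 and 9.89 at 48 h, against 8.67, 8.74 and 9.34 at 38 h. Hnrnpa2b1, an RNA-binding protein of splicing, had 12.84, 12.47 and 12.59 at 48 h, against 11.9, 12.02 and 12.08 at 38 h. These rose 1.61-fold, 1.94-fold and 1.55-fold, with adjusted p of 0.0403, 0.0392 and 0.0316 when the pair was averaged. Snrnp25, a spliceosomal protein, rose 1.86-fold, and Ndufaf3, an assembly factor of respiratory complex I, rose 1.77-fold (adjusted p with the pair averaged 0.0173 and 0.00349). In all 5 the arrays of the times were separate.

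Sham livers of the same times were compared without resection, and they differ in time since surgery and may differ in time of day. Between sham 48 h and sham 38 h 11 genes passed, 0.0605% of those tested, 4 higher (Nr1d1, Bptf, Paxx and Tug1) and 7 lower, and 1833 genes had an unadjusted p under 0.05, while 12 genes passed with the pair averaged. With 1 sham array at 38 h, the fit takes its spread from the other groups. Of the 190 genes that rose after PH, 144 had a sham difference above 0, as did 52.5% of all genes, and of the 40 that fell 32 had a sham difference below 0. The difference of the time effects, PH minus sham, passed for 2 genes (0.011% of those tested), both higher (Cox6b2 and Car9), and none lower in limma, while 1113 (6.12%) had an unadjusted p under 0.05. Averaging the pair left the count at 2, both higher. With young arrays only 6 genes were higher and 9 lower, with the pair averaged among young arrays 2 and 7, and with only the arrays compared 2 and 4, and of the 2 genes above Cox6b2 was the one that passed in these 3 fits. Cox6b2, a subunit of cytochrome c oxidase known from testis, had 9, 9.09 and 8.83 at 48 h after PH, against 7.91, 7.7 and 8.22 at 38 h after PH. In sham livers Cox6b2 had 6.46 and 6.57 at 48 h, against 8.16 at 38 h, and the PH minus sham difference was 2.68 ± 0.31 (adjusted p = 0.000149). After PH it rose 2.04-fold (adjusted p = 0.0028, and 0.0316 with the pair averaged). Car9, a carbonic anhydrase induced by low oxygen, had a PH difference of -0.05 that did not pass and a sham difference of -0.88 that did (adjusted p = 0.00191), which rests on 1 sham array at 38 h. For Cdkn3, Ccnb2, Cdc20 and Serpinb8 the sham differences were 0.05, -0.05, 0.09 and 0.02, and for Ccne2 0.13. The PH minus sham difference passed for none of these genes. Other rises had sham differences in the same direction that did not pass. They were 1.21 for Cyp2c55 (PH 2.12), 1.06 for Ccl9 (PH 1.54), 0.53 for Cyp2c70 (PH 0.63) and 0.53 for Selenoh (PH 1.24). Of the falls, Gde1, Mgll, Nampt and Lonrf3 had sham differences of -0.94, -0.83, -0.83 and -0.69, near their PH differences of -1.11, -1.09, -0.99 and -0.71, though none of these sham values passed.

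Nr1d1 and Dbp had larger measured time differences in sham livers than after PH, but the difference between the surgeries did not pass for either. Nr1d1, which encodes the clock repressor REV-ERB alpha, had 8.15, 8.78 and 8.18 at 48 h after PH, against 8.08, 7.89 and 8.13 at 38 h after PH. In sham livers Nr1d1 had 9.98 and 10.26 at 48 h, against 7.47 at 38 h, a rise of 2.65 that passed (adjusted p = 0.00854). Dbp, a clock output transcription factor, had 6.9, 7.47 and 7.13 at 48 h after PH, against 8.03, 7.95 and 7.81 at 38 h after PH. In sham livers Dbp had 10.11 and 9.45 at 48 h, against 6.97 at 38 h, which did not pass (difference 2.82, adjusted p = 0.328). The PH minus sham difference was -2.31 ± 0.49 for Nr1d1 and -3.58 ± 1.26 for Dbp, with adjusted p of 0.17 and 0.559, so neither passed. Untreated means were 10.04 for Nr1d1 and 10.76 for Dbp, above every PH array of the 2 times. Arntl, the clock activator BMAL1, differed by 0.54 after PH and by -0.55 in sham livers, and neither passed. Of 16 circadian output genes 1 fell after PH (Lonrf3), and 14 had a lower mean at 48 h (median -0.38). Of all genes 0.22% fell and 46.6% had the higher mean at 48 h after PH. No core clock gene of 16 passed after PH in the fit of all arrays, while 2 rose and 2 fell in the fit of young arrays. Of the 16, 5 had all 48 h arrays above all 38 h arrays and 5 had all below, where 12.1% and 8.86% of all genes did.

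**Figure D5:**
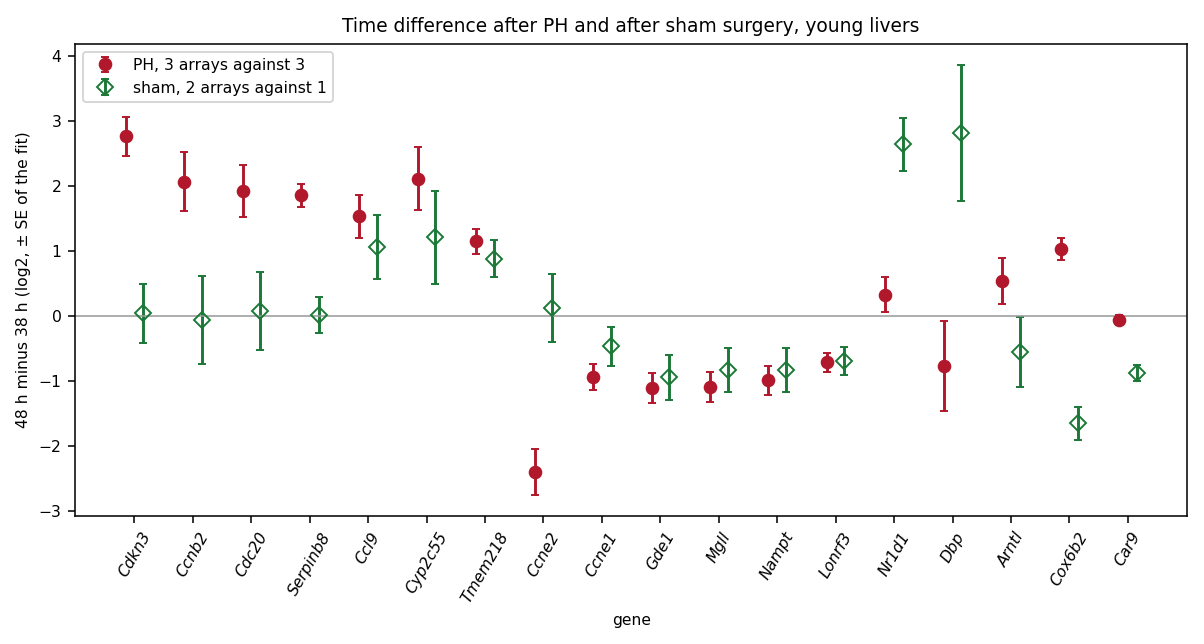
Time difference of 48 h minus 38 h (log2 ± SE of the fit, y axis) after PH (red circles) and after sham surgery (green diamonds) for 18 genes. The cell cycle genes Cdkn3, Ccnb2, Cdc20 and Ccne2 move after PH and have time differences near 0 in sham livers. Gde1, Mgll, Nampt and Lonrf3 have similar values in both, and the time differences of Nr1d1 and Dbp are far larger in sham livers. Of the genes shown, the PH minus sham difference passed for Cox6b2 and Car9 alone.

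The same step in old livers had the same direction for the leading rises. Old PH 38 h replicate 3 stood apart from its group, with a median correlation of 0.946 with the other arrays of that group, against 0.969 and 0.97 for the others, and its part in the differences below was not tested on its own. Cdkn3 differed by 2.8 between old PH 48 h and 38 h, Ccnb2 by 2.95, Cdc20 by 2.69 and Serpinb8 by 2.01. Of the 190 genes that rose in young livers 180 had an old difference above 0, as did 40.5% of all genes, and of the 40 that fell 30 had an old difference below 0. Ccne2 averaged 6.16 ± 0.5 at 48 h and 6.08 ± 1.03 at 38 h in old PH livers (SD, n = 3 each), a difference of 0.09, where young livers had -2.39. The young minus old difference of Ccne2 was -2.48 ± 0.5 (unadjusted p = 4.3e-05) and did not pass the adjustment over all genes (adjusted p = 0.153). Lonrf3 (-1.14, adjusted p = 0.108) and Nampt (-1.29, adjusted p = 0.188) had differences in the same direction that did not pass either. No gene passed this test in limma, with or without the pair averaged, and 1553 had an unadjusted p under 0.05. Without that array and old PH 24 h replicate 1, the 2 arrays least like their groups, the old difference of Ccne2 was -0.51 and its young minus old difference -1.88 (adjusted p = 0.122), and the old differences of Cdkn3 and Ccnb2 were 2.51 and 2.28.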

How the data were processed

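Liver RNA (5 µg, RNeasy columns, per the labels) was hybridised to 35 Affymetrix arrays. The deposited log2 values are RMA signals made by the authors, per the submitters' processing notes. RMA corrects background, equalises signal distributions between arrays and summarises probes. The RMA version is not given in the sources used here. The number of arrays limits the precision, as arrays have no depth.

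For each of 18193 genes the probe set of highest mean among those with 1 symbol was used, with no filter. A mean for each of 14 groups was estimated from the 35 arrays by limma 3.58.1 (lmFit, eBayes) in R 4.3.3, and p-values were adjusted by Benjamini-Hochberg over all genes. Lists were described by counts and medians, with no set test. Members and lists were chosen with earlier results of these data known. Genes named were the 15 largest rises and 15 largest falls with separate arrays, up to 4 members of a list that passed (otherwise the 2 brightest), a panel of 38, genes passing an interaction and promoter examples, and others are said to be chosen later. Of the panel 37 were measured. Simulated arrays had the group means and residual spread of the real genes and independent normal noise, with 48 h PH set equal to 38 h PH before shifts were added. Over 18193 genes, 91% of 100 2-fold and 100% of 100 4-fold shifts were recovered, with 11 unchanged genes called. The simulation held no like pair and no array that stands apart, so it does not give the recovery in the real data. Replicate numbers were not used to pair the samples in the main fit. Alternatives (24) follow below.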

Additional observations from a re-analysis of the deposited data

Results flagged for a closer look

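The time difference of Cox6b2 after PH minus that after sham surgery was 2.68 (log2), and that of Car9 was 0.82, and the test of the difference itself passed for both (limma adjusted p = 0.000149 and 0.0476). Both rest on 1 sham array at 38 h, on which Cox6b2 had 8.16 and Car9 8.45, against untreated means of 6.19 and 7.46. Cox6b2 passed under every alternative in which it was tested, with differences of 2.56 to 2.82. Car9 did not pass with only the arrays compared (adjusted p = 0.244), with young arrays only (0.0661, and 0.065 with the pair averaged as well), with the replicate block (0.0825), or without any 1 of 48 h PH replicates 1, 2 and 3, sham 48 h replicates 1 and 2 or 38 h PH replicate 2 (0.0626 to 0.22). The part of that array in these differences was not tested.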

How the results depend on the processing

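The count of 230 genes moved to 1453 with array weights, 792 with young arrays only, 872 without the 2 arrays least like their group, 35 with only the arrays compared and 41 with the like pair averaged. It ranged from 28 to 353 when 1 of the 6 PH arrays was left out and from 161 to 230 under the other alternatives except the replicate block over 6 arrays. The cause was not tested. Of 38 named genes that passed, 30 lost the call in at least 1 fit without 1 array. Ccne2, Cdkn3, Serpinb8 and Tmem218 lost it under no alternative in which they were tested. With the pair averaged 9 of the 38 kept the call, and 25 with young arrays only as well. No detection calls come with the arrays, and with the dimmest 40% of genes left out 27 of the 38 were tested and kept the call. The rest of the 38 were among the dimmest and were not tested there.

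Deviations of same-numbered arrays correlated at 0.212, -0.224 and 0.159. The highest correlation of each 48 h array with a 38 h array of another number was 0.239, 0.167 and -0.045. Deviations from means of 3 arrays, with a like pair at 38 h, cannot decide whether the numbers pair the samples. The replicate block gave 218 genes over all arrays and 31 over the 6 arrays compared, and for the sham, PH minus sham and age comparisons 15, 2 and 0. Of those 2, 1 was among the 2 genes of the fit without the block (Cox6b2).

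The sham count of 11 moved to 25 with the mean of probe sets, 57 with the probe set of highest variance, 30 with every probe set, 1 without dim genes, 82 with quantile normalization, 18 with a variance trend, 236 with array weights, 710 with only the arrays compared, 122 with young arrays only, 95 without the 2 arrays and 84 with the pair averaged among young arrays, and it ranged from 2 to 14 with 1 array left out. The PH minus sham count of 2 moved to 4 with the mean or the most variable probe set, 0 without dim genes, 35 with array weights, 6 with only the arrays compared, 15 with young arrays only, 19 without the 2 arrays and 9 with the pair averaged among young arrays, and it ranged from 1 to 8 with 1 array left out. In the fit without dim genes Cox6b2 and Car9 were left out and not tested. The age comparison moved from 0 genes to 1 with the most variable probe set, 16 with array weights and 1 without the 2 arrays, and it ranged from 0 to 3 with 1 array left out.

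Differences that turned sign were those of genes near 0, of Fos and Cyp7a1 (-0.19 and 0.37 in the main fit) and of Lonrf3. That of Lonrf3 was 0.28 on its most variable probe set. With the mean of probe sets, Zwint had 0.25, Jund -0.01, Csnk1d 0.07, Foxm1 0.17 and Igf1 -0.05. On the most variable probe set, Zwint had 0.43, Csnk1d 0.29, Foxm1 0.6, Afp 0.06 and Igf1 -0.03. Quantile normalization gave Jund -0.08, Top2a -0.04 and Cyp8b1 -0.03, and array weights gave Jund -0.06 and Foxm1 0.1. With the pair averaged, in either fit, Top2a had -0.09, Fos 0.15, Afp 0.02 and Cyp8b1 -0.07. With 1 array left out, Zwint ranged from -0.12 to 0.04, Jund from -0.12 to 0.15, Csnk1d from -0.19 to 0.09, Npm1 from -0.01 to 0.22, Top2a from -0.24 to 0.3, Foxm1 from -0.1 to 0.15, Fos from -0.87 to 0.15, Myc from -0.17 to 0.19, Cebpa from -0.21 to 0.04, Afp from -0.19 to 0.05, Cyp7a1 from -0.3 to 1.02, Cyp8b1 from -0.37 to 0.77 and Car9 from -0.12 to 0.03.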
